A study of Mus musculus with 6 samples.

Results

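Gene deserts are long stretches of the genome without protein-coding genes. Of 51841 regions of open chromatin found in mouse urothelium, 3427 (6.61%) lay in such stretches, more than 100 kb from every protein-coding gene. Open chromatin had been profiled by ATAC-seq, which reads where an enzyme, Tn5, can cut into DNA that is not packed away. The 50000 intervals of highest fold over background were taken from the peak list of each library and merged where they shared at least 1 bp, which gave 70492 regions. A region was kept when at least 3 of the 6 libraries had an interval in it, and counted as a desert region when its distance to the nearest protein-coding gene span (GRCm38, the coordinates of mm10) exceeded 100 kb. The rule used no comparison of genotypes, but a region open in 1 genotype alone needs all 3 of its libraries to be counted. The groups were 3 Stag2-KO and 3 Stag2-WT libraries. All 6 came from GFP-positive, DAPI-negative cells sorted from peeled urothelium, the epithelial lining of the bladder, 1 week after TMX induction by diet, with 50000 cells per condition and a single batch. The labels name neither the Cre line that drives the deletion nor the number of mice behind a library, so the tests reflect how far these 6 libraries vary, which may be technical in part.

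Stag2 encodes part of cohesin, a ring-shaped complex that pairs sister chromatids and draws DNA into loops, which end where it meets the DNA-binding protein CTCF. Deserts are known to hold distal enhancers, stretches of DNA that raise the activity of genes far away through contacts in the folded chromatin. They are common beside genes that encode transcription factors of development. They can also hold promoters of long non-coding RNAs (lncRNAs).

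Sequence was at hand for the starts of lncRNA genes, as RefSeq promoter windows from 250 bases before to 50 bases after a gene's start (build GRCm38.p6). Such starts lay inside 81 of the 3427 desert regions and belonged to 83 lncRNA genes with 109 windows. Of these windows, 16.5% held the AP-1 motif TGANTCA on either strand, against 10% of 1967 windows of non-coding genes that start over 100 kb from a gene in no kept region, 10.6% of 1572 lncRNA windows in other kept regions and 7.81% of all 32851 windows. AP-1 is a family of dimeric transcription factors that bind enhancers in epithelia. AGGGGGC, letters found in many CTCF sites, was held by 10.1% of the windows inside desert regions, against 3.05%, 13.2% and 10.6% of the same 3 comparison sets. The median GC content was 48.7% in the desert windows, against 44.7%, 59.7% and 52.7%. The motifs do not overlap each other, a match is a description of the letters, and base composition differs between the sets. Starts of 1 gene that lie a few bases apart, such as those of Gm32846 and Gm4718, were counted as separate windows. The shares thus depend on how many starts a gene has.

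Below are 4 of the 109 windows, each on the strand of its gene from 5′ to 3′, with matches to the motifs in capitals. Gm33323 (chr7:129764377-129764676, plus strand, between Wdr11 and Fgfr2) and Gm30657 (chr5:118413532-118413831, minus strand, between Spring1 and Med13l) start in well-ranked desert regions and hold an AP-1 match each. Firre (chrX:50635272-50635571, minus strand, between Olfr1324 and Stk26) is a nuclear lncRNA whose locus is known to bind CTCF and holds AGGGGGC. Mir205hg (chr1:193510161-193510460, minus strand, between Camk1g and Plxna2) is the host transcript of the epithelial microRNA miR-205 and holds neither motif.
Gm33323: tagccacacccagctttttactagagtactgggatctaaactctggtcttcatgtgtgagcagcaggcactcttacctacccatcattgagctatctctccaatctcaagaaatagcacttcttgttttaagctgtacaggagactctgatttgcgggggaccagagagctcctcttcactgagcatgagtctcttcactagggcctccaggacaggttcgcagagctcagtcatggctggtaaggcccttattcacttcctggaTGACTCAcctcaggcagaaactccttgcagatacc
Gm30657: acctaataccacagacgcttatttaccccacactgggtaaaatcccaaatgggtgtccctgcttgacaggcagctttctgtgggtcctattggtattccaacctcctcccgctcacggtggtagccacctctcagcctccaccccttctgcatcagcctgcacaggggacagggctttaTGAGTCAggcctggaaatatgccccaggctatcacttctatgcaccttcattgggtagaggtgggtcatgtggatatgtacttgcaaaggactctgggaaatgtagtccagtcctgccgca
Firre: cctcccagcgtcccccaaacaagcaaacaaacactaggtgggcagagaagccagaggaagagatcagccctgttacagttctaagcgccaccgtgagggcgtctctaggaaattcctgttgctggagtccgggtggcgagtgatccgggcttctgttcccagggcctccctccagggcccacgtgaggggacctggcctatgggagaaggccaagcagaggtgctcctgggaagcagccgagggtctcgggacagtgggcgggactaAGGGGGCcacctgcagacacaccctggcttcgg
Mir205hg: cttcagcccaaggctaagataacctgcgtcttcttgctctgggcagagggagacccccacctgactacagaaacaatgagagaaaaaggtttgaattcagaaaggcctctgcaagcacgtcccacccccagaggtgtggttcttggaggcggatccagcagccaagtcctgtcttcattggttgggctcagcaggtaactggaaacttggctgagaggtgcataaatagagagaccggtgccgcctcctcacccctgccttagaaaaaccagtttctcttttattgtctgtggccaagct

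Both arms of miR-205, which restrains the EMT factors Zeb1 and Zeb2 in epithelial cells, are encoded downstream of this start at chr1:193507503-193507524 and chr1:193507467-193507488 on the minus strand. Capitals mark the seed, bases 2 to 8.
mmu-miR-205-5p: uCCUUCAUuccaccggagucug
mmu-miR-205-3p: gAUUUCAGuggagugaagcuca

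The region at the start of Mir205hg ranked 16189, 13879 and 9390 in KO and 10299, 10463 and 8916 in WT, where rank 1 is the interval of best p in a list. The groups overlapped, and the log2 rank gain, in which +1 stands for a rank better in KO by a factor of 2, was -0.38 (limma, adjusted p = 0.471). At the start of Gm30657 the ranks were 4612, 4994 and 2310 in KO and 1739, 2357 and 1299 in WT, again with overlap, and the gain was -1.11 (limma, adjusted p = 0.224). The Firre region held rank 4719, 4905 and 9991 in KO and 8638, 5756 and 7952 in WT, with a gain of 0.26 (limma, adjusted p = 0.702).

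The lists held 181987 to 299636 peaks in KO and 205463 to 213589 in WT. The smallest background coverage of a library, implied by the deposited fold and p, was 5.89 to 7.98 in KO and 6.37 to 7.59 in WT. At desert regions, the −log2 ranks of KO replicate 3 had Pearson's r of 0.87 to 0.92 with the WT libraries, and 0.81 with each of the other KO libraries. KO replicates 1 and 2 had r = 0.93 with each other, 0.86 and 0.87 with WT replicate 2, and 0.64 to 0.72 with WT replicates 1 and 3. KO replicate 3 thus correlated more with the WT libraries than with the other KO libraries, and the main counts are also given without it. The same held over all kept regions, where its r was 0.924 to 0.955 with the WT libraries. With KO replicates 1 and 2 it was 0.881 and 0.862 there. Among the best 100000 intervals of each library, all 6 luminal urothelial markers and 10 or 11 of 11 epithelial markers had an open gene end, with Gata3 missing in 5 of 6 libraries. Of 5 basal markers 3, 3 and 4 did in KO and 3, 4 and 4 in WT, with Trp63 missing in all 6. Of 6 leukocyte markers 2, 3 and 2 did in KO and 1 in each WT library, with Ptprc missing in all 6. Of 6 fibroblast markers 4, 4 and 2 did in KO and 5, 3 and 3 in WT, with Lum missing in all 6. Of 5 smooth muscle markers 3, 2 and 2 in each genotype did, and of 5 endothelial markers 2, 1 and 0 in KO and 1, 1 and 0 in WT. Among the 50000 kept intervals the counts were lower or equal. Epithelial counts were 4, 5 and 4 of 11 in KO and 2, 2 and 3 in WT. Basal counts were 2, 2 and 2 of 5 in KO and 0, 1 and 0 in WT. These 2 sets do not overlap between the genotypes. The luminal counts were 6, 5 and 6 in each genotype, and the leukocyte count was 1 in every library. Smooth muscle counts were 1, 2 and 1 in KO and 2, 1 and 2 in WT. Fibroblast counts were 0, 0 and 0 in KO and 2, 0 and 0 in WT, and endothelial counts 1, 1 and 0 in KO and 0, 0 and 0 in WT. The part of these counts in the results was not tested. The lists do not report on the deleted part of Stag2, so they do not check the genotype labels. In sorted cells measured in bulk, fewer cells with an open region and less opening per cell cannot be told apart.

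Desert regions were narrower than regions 10 to 100 kb from a gene, and their intervals more often had the smallest background of the library. They were 202 to 1715 bp wide, with a median of 487 bp, and lay 100008 to 2187461 bp from the nearest protein-coding gene, with a median of 187251 bp. Of the 3427, 268 lay over 500 kb and 43 over 1000 kb from any protein-coding gene. Just inside the limit were regions between Msx2 and Drd1 at 100008 bp, Tbc1d1 and Gm38457 at 100069 bp, and Gm4791 and Cadm1 at 100100 bp, with gains of -0.66, 0.34 and 0.13. Just outside were regions between Cd24a and Qrsl1 at 99967 bp, Glul and Zfp648 at 99912 bp, and Kit and Kdr at 99879 bp, with gains of 0.37, -1.19 and 0.47.

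Compared with intergenic intervals 10 to 100 kb from a gene in the same library, desert intervals had a median width 22.3 bp smaller, in 6 of 6 libraries (exact paired permutation test, two-sided p = 0.03125, the smallest that 6 pairs allow). Within deciles of p the difference was -12.6 bp (exact paired permutation test, p = 0.03125). They also held fewer summits, with a difference of -0.0438 per interval, in 6 of 6 libraries (exact paired permutation test, p = 0.03125). Against intervals deep inside genes, over 100 kb from both gene ends, the width differed by -0.25 bp (range over libraries -6 to 4 bp, exact paired permutation test, p = 0.906). Summits were fewer than there, with a difference of -0.0217 per interval (p = 0.03125 by the exact paired test), which missed the threshold with 25000 intervals kept per library. In KO the desert intervals were narrower than in WT, with medians of 354, 369 and 392 bp in KO and 449, 395 and 421 bp in WT. The genotypes did not overlap (exact permutation test, p = 0.1), and the same held for intervals 10 to 100 kb from a gene (difference -48 bp) and deep inside genes (-54.2 bp).

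Many desert intervals had the smallest background of their library. The background that the peak caller had used stood at the smallest value of the library for 45.9%, 49.9% and 40.6% of desert intervals in KO and 40.5%, 44.6% and 39.97% in WT. This was 14.7 percentage points more than for intervals 10 to 100 kb from a gene and 5.97 points more than for intervals deep inside genes, with the same sign in 6 of 6 libraries (exact paired permutation test, p = 0.03125 each). Fold sets coverage against this background, and intervals were kept by fold. The rule thus favours a low background, and these p-values are given as a description.

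Fewer desert regions than kept regions at large were open in all libraries. Of the desert regions, 1817 (53.0%) had a kept interval in all 6 libraries, against 62.5% of all kept regions, 60.8% of those 10 to 100 kb from a gene, 54.5% of those deep inside genes and 79.6% of those at gene ends. The next most frequent pattern, with 331 regions, was a kept interval in KO replicate 3 and the 3 WT libraries alone (9.66% of desert regions and 4.90% of all kept regions). An interval among the best 100000 was found in all 6 libraries for 3005 desert regions, and 422 lacked one in at least 1 library.

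Open regions were spread unevenly over the deserts. Of 1689 gaps of over 200 kb between protein-coding genes, 821 (48.6%) held a desert region, and 265 of these held 1. The 94 deserts with 10 or more held 1355 regions, or 39.5% of all. Counted per Mb of sequence more than 100 kb from genes, there were 4.35 desert regions in the whole genome, 9.76 on chromosome 13, 1.31 on chromosome X and 0 on chromosome Y, which has 152 of the deserts.

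The 5 fullest deserts lay between Plpp3, which encodes a lipid phosphatase, and the deubiquitinase gene Usp24 (28 regions in 1083 kb), between the zinc transporter gene Slc30a5 and Pik3r1, the regulatory subunit of PI3 kinase (26 in 847 kb), between Celf2, which encodes an RNA-binding protein, and Gata3, a transcription factor of the urothelial lineage (26 in 2461 kb), between Klf4, an epithelial transcription factor, and Actl7b (26 in 1208 kb), and between the oncogene Myc and Gsdmc, which encodes a gasdermin (25 in 1786 kb). Further deserts with many open regions adjoined Cited2 (24), Tbx3 (23), Klf5 and Klf12 (22), Runx1 (20), Sox2 and Foxq1 (18 each), and Sox9 (16 on one side and 11 on the other). These were picked because the genes encode transcription factors or, for Cited2, a transcriptional coregulator. Deserts of like counts outside this pick lay between Saraf and Dusp4 (23), Camk1g and Plxna2 (21), Slc4a3 and Epha4 (20), and Thap1 and Zfp703 (20). So did those between Phlda1 and Krr1 (19), Gadd45g and Diras2 (19), and Matn1 and Ptpru (18). Genes of developmental transcription factor families made up 14.1% (26 of 184) of the flanks of deserts with 10 or more regions, against 4.69% (70 of 1494) of the flanks of all deserts with a region, 2.12% (32 of 1513) of the flanks of deserts without one and 1.04% of all protein-coding genes. For genes of adhesion and synaptic families the shares were 1.63%, 4.69%, 4.10% and 1.40% in the same order. These families were taken by gene symbol, and longer deserts can hold more regions: the median gap was 569 kb with a region and 334 kb without.

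**Figure D1:**
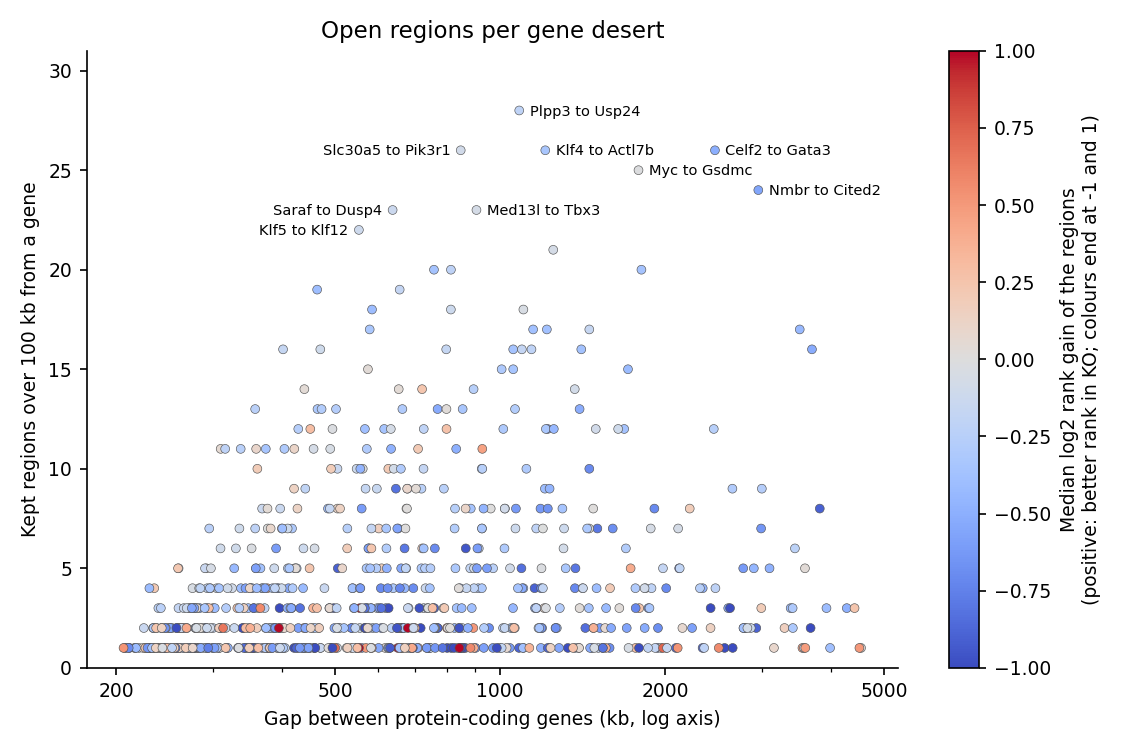
Number of open desert regions (vertical axis) against the length of the gap between protein-coding genes in kb (log axis), 1 point per desert with at least 1 region, coloured by the median log2 rank gain of its regions. The desert between Plpp3 and Usp24 stands highest with 28, and deserts with 10 or more regions are mostly blue: 79 of 94 have a negative median.

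The desert region of best mean rank lay between Flrt2, which encodes an adhesion protein, and Galc, a lysosomal enzyme gene, at chr12:97061369-97061855, more than 1000 kb from both. Its ranks were 80, 156 and 3 in KO and 1, 2 and 1 in WT, with a summit coverage of 2036, 2461 and 2160 in KO and 4124, 4408 and 4222 in WT. All KO ranks were worse than the WT ranks, and the gain of -4.73 ± 1.29 (SE with n = 3 each) did not pass (limma, adjusted p = 0.209). Without KO replicate 3 the gain was -6.47 and passed (limma, adjusted p = 0.0024). It also passed with the replicate block (adjusted p = 0.0333 by limma), although the replicate numbers were not taken as a pairing. The local background there was also high, at 68.9 to 83.7 in KO and 137 to 143 in WT. The fold over it overlapped between the genotypes, at 29.14, 29.08 and 30.92 in KO and 29.85, 30.68 and 30.42 in WT. Coverage and background are not scaled between libraries.

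The region at chr13:4771125-4771969, 161960 bp from Akr1e1 in the desert that ends at Klf6, an early response transcription factor gene, held rank 430, 1150 and 65 in KO and 55, 128 and 92 in WT. The one at chr1:23255831-23256964, between Ppp1r14bl and Ogfrl1, held rank 131, 67 and 192 in KO and 379, 117 and 330 in WT. Both overlapped between the genotypes and neither passed (limma, adjusted p = 0.269 and 0.369). In the Celf2 to Gata3 desert the best region, at chr2:8729151-8729752 and 1127325 bp from Gata3, held rank 761, 767 and 438 in KO and 1653, 325 and 432 in WT, with a gain of -0.05 ± 0.64 (SE with n = 3 each, limma, adjusted p = 0.972). The remaining 2 of the 6 best, between Map3k1 and Ankrd55 and between Ptprd and Tyrp1, had gains of -1.25 ± 0.82 and -2.30 ± 0.68 and did not pass either (limma, adjusted p = 0.373 and 0.213).

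The best regions of the other 4 fullest deserts did not pass the test either. The ranks were 1077, 1301 and 1776 in KO and 1203, 1073 and 1228 in WT between Plpp3 and Usp24 (chr4:106122876-106123727), and 3228, 3248 and 2241 in KO and 4383, 2005 and 3697 in WT between Myc and Gsdmc (chr15:62568838-62569836), with adjusted p of 0.775 and 0.840 by limma. The genotypes overlapped in both. Between Klf4 and Actl7b and between Slc30a5 and Pik3r1 the gains were 0.09 ± 0.42 and -0.33 ± 0.30 (limma, adjusted p = 0.912 and 0.516).

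The 4 regions farthest from any protein-coding gene were also open. At chr18:28077648-28078153, inside the lncRNA gene Gm33860 and 2187461 bp from Pik3c3, the ranks were 50199, 53721 and 74885 in KO. In WT they were 88427, 65508 and 100001, where WT replicate 3 had an interval (summit coverage 32) too weak for the rank list. At chr1:102628041-102628397, 2137441 bp from Cntnap5b, which belongs to the neurexin family, they were 5845, 7008 and 4236 in KO and 1812, 4898 and 1935 in WT. Neither passed (limma, adjusted p = 0.288 and 0.227). The region between Olfm4 and Pcdh17 (chr14:82065203-82065673) had a gain of 0.31 ± 0.43. The one between the protocadherin gene Pcdh7 and G6pd2 (chr5:60042711-60043140) had the most negative gain of all desert regions, -6.90 ± 1.76, with ranks of 67742, 61879 and 9557 in KO and 25, 12094 and 77 in WT. KO replicate 3 ranked better than WT replicate 2 there, and the gain did not pass (limma, adjusted p = 0.203). It passed without KO replicate 3 (-7.82), without WT replicate 2 (-9.61) and with the replicate block (limma, adjusted p = 0.00584, 0.00268 and 0.0077). The replicate numbers were not taken as a pairing.

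Desert intervals made up a smaller share of the open chromatin in KO. They were 6.10%, 5.77% and 6.53% of the 50000 intervals in the KO libraries and 7.01%, 6.93% and 6.79% in the WT libraries. Every KO library lay below every WT library, with means of 6.13 ± 0.383% in KO and 6.91 ± 0.110% in WT (SD, n = 3 each, exact permutation test, two-sided p = 0.1, the smallest that 3 against 3 allows). The share is that of a library's own intervals and does not depend on the requirement of 3 libraries. Without each library in turn the difference was -0.975 to -0.593 percentage points, with the size of 0.975 reached without KO replicate 3. Intervals deep inside genes also took a smaller share, 4.32%, 4.18% and 4.43% in the KO libraries and 4.56%, 4.70% and 4.60% in the WT libraries (exact permutation test, p = 0.1). The share of intervals at gene ends was higher in KO, at 20.4 ± 1.14% against 18.5 ± 0.426% in WT (SD, n = 3 each, exact permutation test, p = 0.1). With gene ends left out, desert intervals were 7.72%, 7.32% and 8.07% of the rest in KO and 8.65%, 8.48% and 8.30% in WT (exact permutation test, p = 0.1). Of intergenic intervals they were 17.1%, 16.4% and 17.6% in KO and 18.6%, 18.5% and 18.1% in WT (exact permutation test, p = 0.1).

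**Figure D2:**
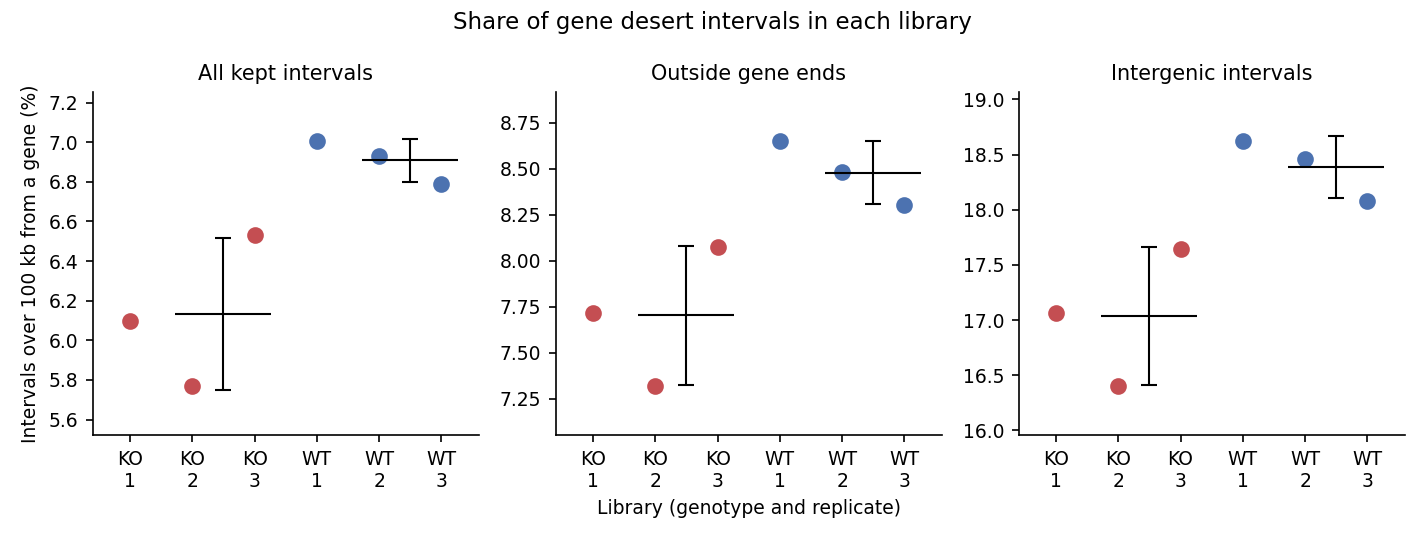
Percentage of kept intervals more than 100 kb from a protein-coding gene in each library (points), out of all kept intervals, of those outside gene ends and of intergenic ones; horizontal bars are means and vertical bars SD over 3 libraries, and the vertical axes do not start at 0. In all 3 panels each KO library lies below each WT library, and KO replicate 3 is the KO library nearest to WT.

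The share in KO relative to WT was smaller at longer distances from genes, up to 1000 kb. As a percentage of the WT share, the KO share was 103% for intervals in or touching a gene, 98.0% up to 10 kb, 97.8% from 10 to 50 kb, 94.8% from 50 to 100 kb, 92.2% from 100 to 200 kb, 85.1% from 200 to 500 kb, 81.1% from 500 to 1000 kb and 90.0% beyond 1000 kb. The genotypes did not overlap inside genes or in the bins from 10 to 500 kb (exact permutation test, p = 0.1 in each) and overlapped at 500 to 1000 kb (p = 0.3 by the exact test) and beyond (p = 0.4 by the exact test), where 225 and 43 regions were kept. Without KO replicate 3 the 4 desert bins stood at 90.9%, 81.3%, 71.8% and 81.9%, and without KO replicate 2 at 93.9%, 88.2%, 88.7% and 95.8%. The median log2 rank gain went the same way, at 0.04, -0.10, -0.11, -0.17, -0.21, -0.27, -0.34 and -0.30 over the 8 bins. These bins share the same 6 libraries.

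**Figure D3:**
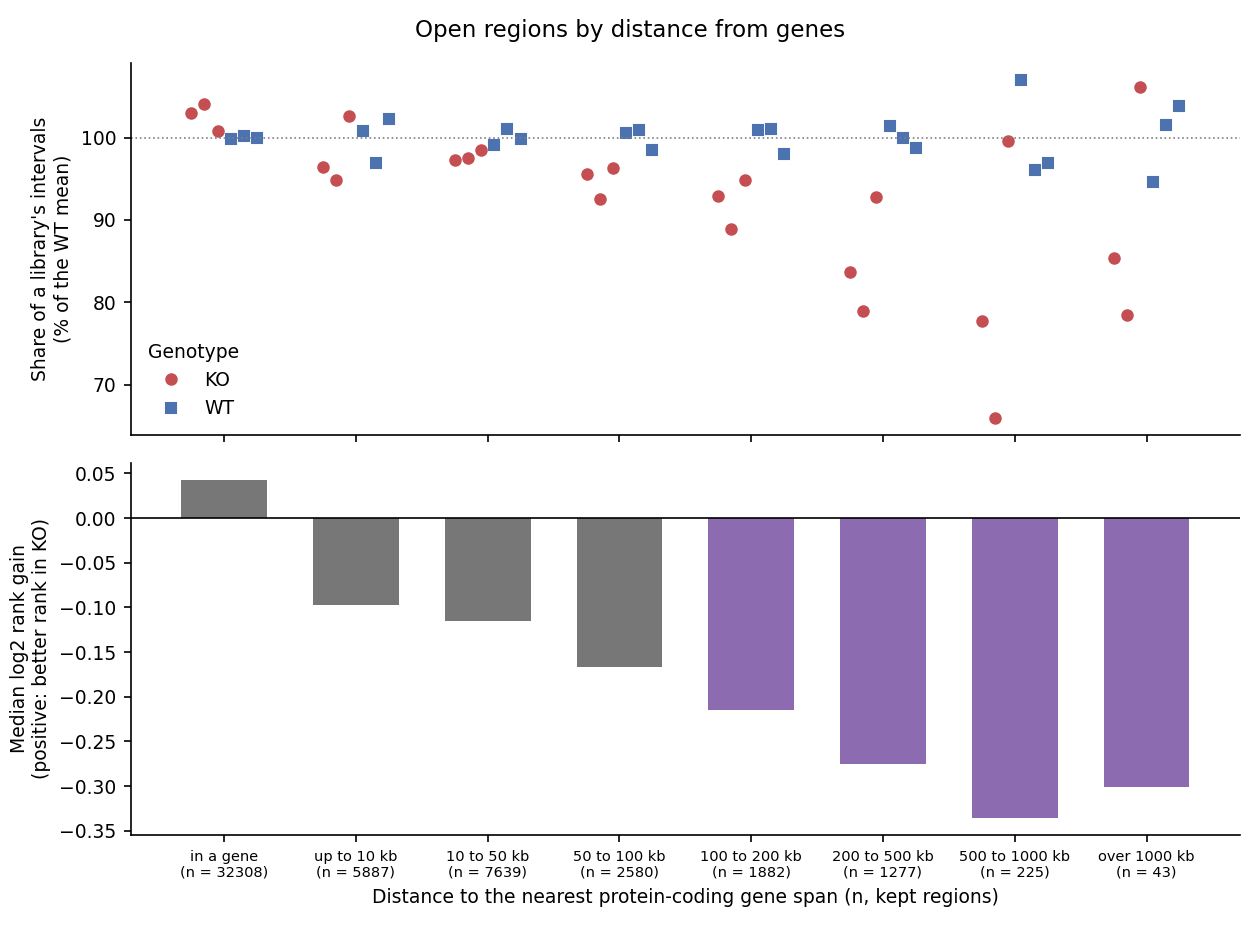
Top, share of each library's kept intervals in 8 bins of distance to the nearest protein-coding gene, as a percentage of the WT mean of that bin (circles KO, squares WT). Bottom, median log2 rank gain of the kept regions in each bin (purple, more than 100 kb). From 200 to 500 kb the KO libraries average 85.1% of the WT share and the median gain is -0.27.

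Desert regions also had worse ranks in KO. Their median rank among the 100000 intervals of best p was 41347, 42991 and 35514 in the KO libraries and 33748, 35303 and 33341 in the WT libraries, worse in every KO library. The same held for all kept regions, with medians of 28024, 28103 and 27258 in KO and 27202, 26860 and 26976 in WT (exact permutation test, p = 0.1 for both sets). The median gain of the 3427 regions was -0.25, and 67.2% of the gains were negative, against a median of -0.03 and 52.1% over all 51841 kept regions. Regions deep inside genes had a median of -0.17 with 62.3% negative, and regions 10 to 100 kb from a gene -0.13 with 59.7%. The size of the desert median depended on the lists: it was -0.10 with a rank list of 50000 intervals, -0.11 with 100000 intervals kept per library and -0.35 with spans of all annotated genes, and negative on the log2 scale in all settings. Relative to all kept regions, the median −log2 rank was -0.56, -0.61 and -0.38 in KO and -0.31, -0.39 and -0.31 in WT, where KO replicate 3 overlapped with WT replicate 2 (exact permutation test, p = 0.2). The desert median was below 0, and below the median of all kept regions, on each of the 20 chromosomes with desert regions, at -0.40 on chromosome 10 and -0.04 on chromosome X as the extremes.

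The lower gain was present among strong and weak regions. In each decile of the kept regions by mean rank, the median gain of desert regions was lower than that of regions 10 to 100 kb from a gene, with differences of -0.0547 to -0.243, and lower than that of regions deep inside genes. Taken against regions 10 to 100 kb from a gene in the same decile, the median −log2 rank of desert regions was -0.153, -0.169 and 0.0331 in KO and 0.0814, 0.0355 and 0.0912 in WT. All KO values were lower (exact permutation test, p = 0.1), and KO replicate 3 missed WT replicate 2 by little.

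**Figure D4:**
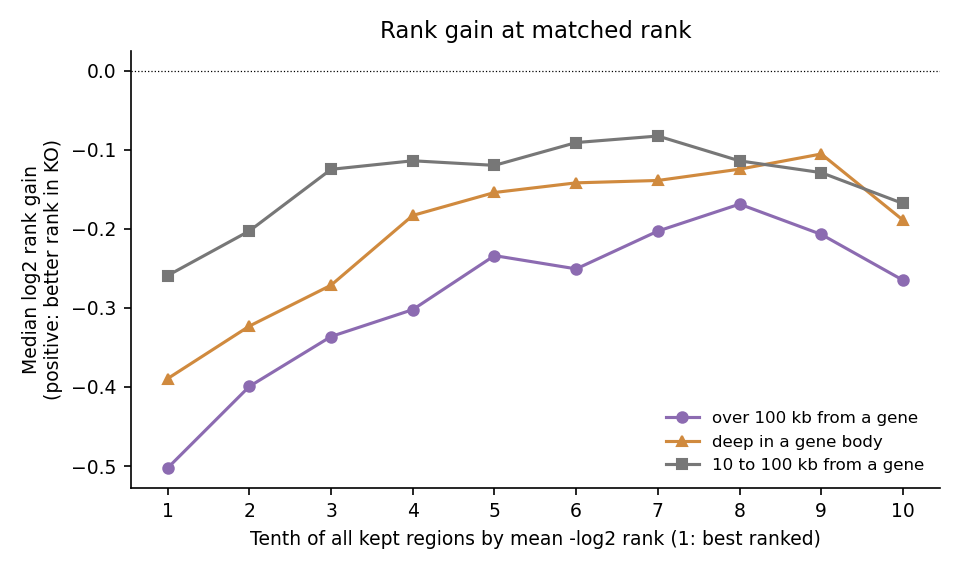
Median log2 rank gain (vertical axis, positive for a better rank in KO) in each decile of all kept regions by mean −log2 rank over the 6 libraries (1 is the best), for desert regions, regions deep inside genes and regions 10 to 100 kb from a gene. Desert regions lie lowest in all 10 deciles, at -0.50 in the first and -0.27 in the last.

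Single desert regions rarely passed the test. Over all kept regions 0.081% were called higher and 0.0714% lower in KO (limma, adjusted p below 0.05), and of the 3427 desert regions 7 were called higher (0.204%) and 7 lower (0.204%). At an unadjusted p below 0.05, 142 desert regions (4.14%) were higher and 690 (20.1%) lower, against 8.23% and 11.9% of all kept regions. All 3 KO ranks were worse than all 3 WT ranks at 478 desert regions (13.9%) and better at 160 (4.67%), against 9.71% and 8.56% of all kept regions. Without KO replicate 3, where fewer ranks need to agree, these were 1448 (46.1%) and 338 (10.8%), against 31.3% and 25.5% of all kept regions. Without WT replicate 2, under the same looser rule, they were 982 (31.7%) and 426 (13.7%), against 22.4% and 22.2% of all kept regions. The number of calls changed with every library left out. Without KO replicate 3, 107 desert regions were called higher and 892 lower (3.41% and 28.4% of the desert regions), against 10.7% and 16.3% of all kept regions. Without any other single library, 0 to 4 were called higher and 0 to 2 lower (0% to 0.129% and 0% to 0.0645% of the desert regions). Of all kept regions, 0.00204% to 0.0350% were called higher and 0% to 0.0226% lower in these settings. With a rank list of 50000 intervals, none of the 51841 kept regions was called in either direction, and so no desert region (limma). There 101 desert regions (2.95%) were higher and 327 (9.54%) lower at an unadjusted p below 0.05, against 5.90% and 6.67% of all kept regions. Of the 14 called regions, 12 had a kept interval in the 3 libraries of a single genotype alone, so they were counted only through the genotype where they are high. Their p-values are conditional on that and are given as a description. With at least 4 libraries required no desert region was called in either direction, and of all 45460 kept regions 1 was called higher and 0 lower (limma). At an unadjusted p below 0.05, 117 (4.06%) were higher there and 609 (21.1%) lower, against 8.10% and 11.9% of all kept regions.

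Of the 7 regions called lower, 4 lacked an interval at any rank in the 3 KO lists. The whole lists differ in reach, with 149153 to 260462 intervals. That of KO replicate 1 stops at a −log10 p of 3.00 and those of the other libraries at 2.00. Between Gnai1, which encodes a G protein subunit, and Magi2, a synaptic scaffold gene (chr5:18502782-18503315, 142368 bp from Gnai1), the summit coverage in WT was 318, 782 and 448. The rank gain was -4.32 ± 0.26 (SE with n = 3 each, limma, adjusted p = 0.000118). Between Fat3, an atypical cadherin gene, and Chordc1, a chaperone partner gene (chr9:17508681-17509096, 783170 bp from Chordc1), the WT coverage was 230, 502 and 329 and the gain -3.40 ± 0.24 (SE with n = 3 each, limma, adjusted p = 0.000172). The other 2 shared the desert between the protocadherin gene Pcdh17 and the formin gene Diaph3 (chr14:86197516-86198256 and chr14:86537612-86538155). Their WT ranks were 5915, 23187 and 15080, and 6181, 29013 and 18004, with WT replicate 1 best in both, and their gains were -2.97 ± 0.41 and -2.76 ± 0.45 (limma, adjusted p = 0.0234 and 0.0458).

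The other 3 had weak intervals in KO. Between the sodium-calcium exchanger gene Slc8a1 and Pkdcc (chr17:83074975-83075469, inside the lncRNA gene Gm19689), the ranks were 89717, 100001 and 96423 in KO and 25455, 36077 and 27971 in WT, which gave -1.69 ± 0.23 as the gain (limma, adjusted p = 0.0234). Between the potassium channel gene Kcna4 and Mettl15 (chr2:108660856-108661478) they were 98406, 94120 and 100001 in KO and 34912, 38648 and 36342 in WT, and the gain was -1.41 ± 0.22 (limma, adjusted p = 0.0376). Between Dsel and Cntnap5a (chr1:113158095-113158550) they were 100001, 100001 and 51042 in KO and 16561, 27952 and 19886 in WT, and the gain was -1.93 ± 0.32 (limma, adjusted p = 0.0470), with KO replicate 3 between the other KO libraries and WT. All 3 groups of KO ranks lay beyond the WT ranks.

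Of the 7 regions called higher, the first lay 107196 bp from Tfap2a, which encodes the transcription factor AP-2 alpha of ectoderm and epithelia (chr13:40605901-40606605). Its summit coverage was 482, 642 and 385 in KO and 31, 34 and 33 in WT, with ranks of 8198, 8849 and 7076 in KO and none among the best 100000 in WT. The gain was 3.64 ± 0.23 (SE with n = 3 each, limma, adjusted p = 0.000118). Between Arhgap42 and the contactin gene Cntn5 (chr9:9376144-9376510), the KO coverage was 289, 305 and 208, and no WT list had an interval (gain 2.38 ± 0.22, limma, adjusted p = 0.00175). A region between Gm7361 and Dpp6, a potassium channel subunit gene (chr5:26513157-26513656), had KO coverage of 165, 120 and 145 and was likewise missing from the WT lists (gain 1.56 ± 0.25, limma, adjusted p = 0.0452).

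The remaining 4 lay in pairs. Between Tbc1d5, a Rab GTPase activating protein gene, and the chromatin organiser gene Satb1, regions at chr17:51304964-51305368 and chr17:51367234-51367660 had gains of 2.18 ± 0.27 and 1.63 ± 0.26 (limma, adjusted p = 0.0137 and 0.0458). Their ranks were 14210, 19765 and 24823 in KO and 69155, 94136 and 100001 in WT at the first, and 40394, 37081 and 22715 in KO and 100001 throughout WT at the second. Between the predicted genes Gm46305 and Gm10476, regions at chr12:22030118-22031171 and chr12:22156272-22156942 overlapped pseudogenes, may share reads with near-identical copies and are uncertain. Their gains were 3.02 ± 0.38 and 1.77 ± 0.28 (limma, adjusted p = 0.0152 and 0.0415).

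**Figure D5:**
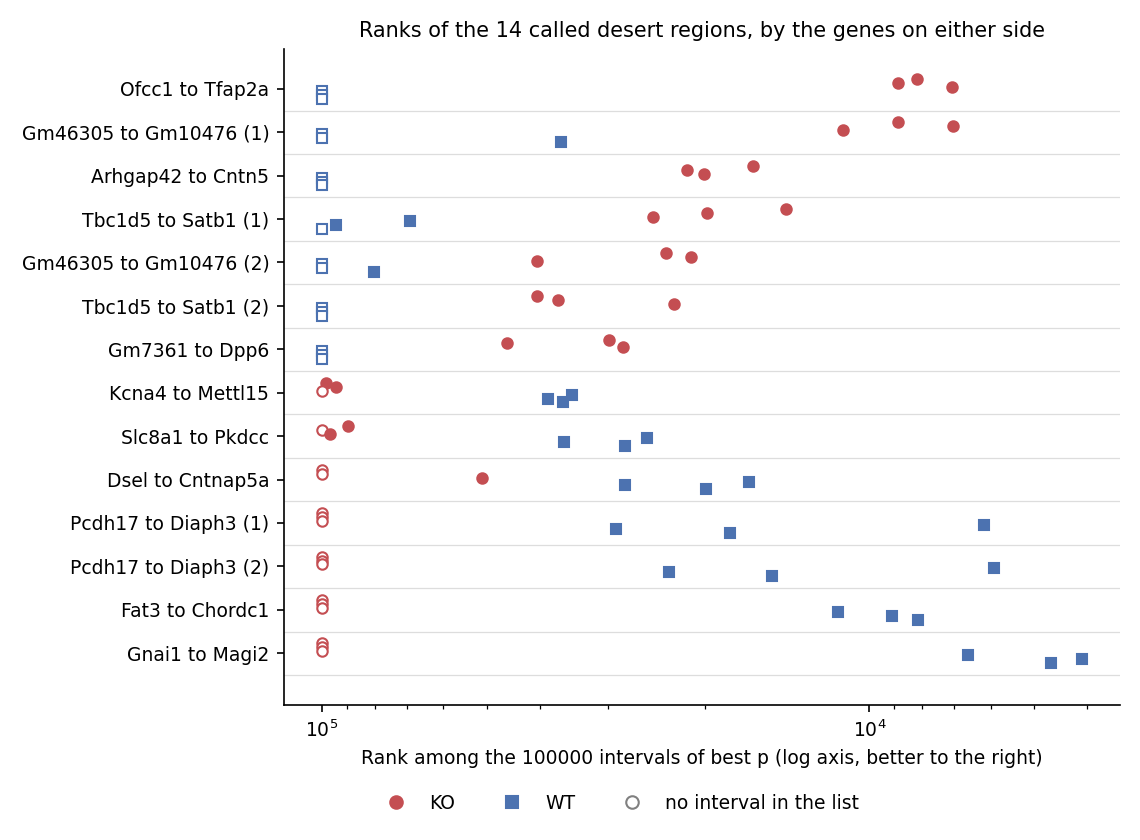
Rank in each library (circles KO, squares WT, log axis, better to the right) of the 14 desert regions called by limma, named by the genes on either side and numbered where a desert holds 2. Open symbols are libraries without an interval among the best 100000; in every row the 3 KO libraries lie on one side of the 3 WT libraries.

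In 8 of the 14 called regions all 3 libraries of a genotype had no interval in the rank list, so that genotype added no spread and the gain depends on the list length. The calls between Gnai1 and Magi2, between Fat3 and Chordc1 and beside Tfap2a held in 15 of the 16 settings in which these regions were kept, and were lost with a rank list of 50000 intervals (limma, adjusted p = 0.0792 each). The other 11 were called in 7 to 13 of the 15 to 20 settings that kept them, with 1 sign throughout. In the rest of the 21 settings, such as more libraries required or a library of the open genotype left out, the region was not kept and could not be called. The counts of settings include the main one and some that repeat its fit. A limit of 50 kb or 200 kb, or spans of all annotated genes, changed only the class of a region, so no call could change. The region beside Tfap2a was no longer a desert region at 200 kb. A filter at a −log10 q of 2 also left the 51841 regions and the 42 higher and 37 lower calls the same.

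Regions kept in all libraries of a genotype and in none of the other leaned to WT. There were 36 KO-only (1.05%) and 83 WT-only desert regions (2.42%), against 1.42% and 1.24% of all kept regions. Of these, 2 KO-only and 4 WT-only regions had no interval at any rank in the opposite genotype, and all 6 are among the called regions above. The KO-only regions with the best ranks lay between Sox9 and Slc39a11 (chr11:113101538-113101956), between Ptger4 and Dab2 (chr15:5537397-5537788), and between Tmc1 and LOC115489044 (chr19:21170629-21171160), each inside a lncRNA gene. Beside Sox9 the ranks were 12070, 11473 and 10647 in KO and 18139, 18994 and 16888 in WT, so intervals of good p were present in WT but below the fold needed to be kept (gain 0.66 ± 0.26, limma, adjusted p = 0.223). In the third WT-only region by rank, between Exoc2 and the forkhead gene Foxq1 (chr13:31209139-31209519), they were 60301, 48154 and 49280 in KO and 24593, 24086 and 19664 in WT (gain -1.21 ± 0.23, limma, adjusted p = 0.1004). Leaving out a library loosens the rule: without KO replicate 3 there were 414 WT-only desert regions (13.2%), against 6.59% of all kept regions, and KO-only regions could not be counted.

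Most of the fuller deserts shifted the same way. Of the 94 deserts with 10 or more regions, 79 had a negative median gain. With ranks by fold it was 52 of 94, and without KO replicate 3 73 of 84. The lowest medians were -0.70 between the protease gene Adamts5 and N6amt1 (8 of 10 regions negative), -0.64 between Ccer1 and the calcium pump gene Atp2b1 (11 of 12), -0.56 between Nmbr and Cited2 (21 of 24) and -0.53 between Rasgrp1 and Thbs1, which encodes thrombospondin (11 of 13). The highest were 0.46 between Cd83 and Jarid2 (4 of 11 negative), 0.29 between Tbc1d1 and Gm38457 (4 of 12) and 0.26 between Gm52008 and Bcl11b (4 of 12). No desert was tested as a unit. Desert regions beside a gene of the adhesion and synaptic families had a median gain of -0.39 (177 of 236 negative), those beside a developmental transcription factor gene -0.18 (348 of 546), and the rest -0.24 (1777 of 2645). Only 39.4% of the regions beside adhesion and synaptic genes were kept in all 6 libraries, against 54.0% of each of the other sets.

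Many desert regions lay inside lncRNA genes. Of the 3427, 818 (23.9%) overlapped a lncRNA gene, against 22.7% of the regions 10 to 100 kb from a protein-coding gene and 15.8% of those within 10 kb, and 25 (0.730%) overlapped a pseudogene. The median gain was -0.16 for the 818 and -0.27 for the other 2609.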

How the data were processed

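ATAC-seq peak lists of 3 Stag2-KO and 3 Stag2-WT libraries were used, each called on its own library. Per the submitters' processing notes, coordinates are mm10 and DiffBind was applied at some step. Aligner and peak caller: not given in the sources used here. For each peak, the authors deposited its fold over local background, which is a ratio, as well as its p-value and q-value as −log10. A display score deposited by the authors was not used. These values depend on depth, so tests used them only as ranks and filters within a list; coverages solved from them are descriptive and not scaled between libraries.

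Rows with equal coordinates were collapsed to intervals with the number of summits. Merging, classing and exact tests were done in Python 3.11.15 (SciPy 1.17.1, NumPy 2.4.6, pandas 2.3.3), and figures in matplotlib 3.10.9. Gene spans came from the RefSeq table of GRCm38.p6 (21883 protein-coding symbols). For each region the best rank among the 100000 intervals of best p was taken (100001 where there was none), and limma 3.58.1 (R 4.3.3) was fitted to the −log2 ranks (trend, Benjamini-Hochberg over all 51841 kept regions, threshold 0.05). Coverage and background were solved from fold and p under a Poisson model, which returned both within 0.01 in −log10 p for over 99.9% of kept intervals. Merging was checked against bedtools 2.31.1, and the fit was tested on simulated lists.

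Named regions are the 6 best ranked, the 6 of smallest p per direction, the 3 best KO-only and WT-only, the 4 farthest, the 3 on either side of 100 kb and the best of the 5 fullest deserts; other called regions and deserts were added after their values were seen. The regions and lists were chosen with earlier results of these data known. Other settings, 4 of them chosen after seeing the data, are in the closing section. No genome sequence was used here, so motifs were examined only in promoter windows.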

Additional observations from a re-analysis of the deposited data

How the results depend on the processing

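The lower share of desert intervals in KO kept its sign under all alternatives run (differences of -1.35 to -0.179 percentage points; -0.975 to -0.593 without each library), as did the lower relative median rank (-0.261 to -0.134 without each library). Desert regions numbered 1703 and 7446 with 25000 and 100000 intervals kept, 6007 and 1545 at 50 kb and 200 kb, 377 with spans of all annotated genes, 1817 when kept in all 6 libraries, and 3102 to 3230 without each library. With intervals kept by p instead of fold, they were 2776 of 51121 kept regions. Over all kept regions at most 0.081% were called either way in the settings that follow, other than the block and the fit without KO replicate 3. Calls higher and lower (limma) were 4 and 3 at 25000 intervals, 1 and 2 at 100000, 4 and 4 with intervals kept by p, 3 and 4 at 200 kb, 1 and 0 with all annotated genes, 2 and 4 with linear ranks, and 3 and 8 with ranks by fold (0.0875% and 0.233%, against 0.0328% and 0.0347% of all kept regions). Both were 0 with a rank list of 50000, or with 4 or 6 libraries required. Without each library they were 0 to 107 and 0 to 892. Counts at an unadjusted p below 0.05 follow as higher and lower, with the shares over all kept regions in brackets. They were 53 and 401 at 25000 (6.83% and 13.2%) and 288 and 909 at 100000 (7.22% and 7.79%). At 200 kb, 50 kb and all annotated genes they were 54 and 334, 273 and 1118, and 13 and 100 (8.23% and 11.9%). With 4 and 6 libraries required they were 117 and 609 (8.10% and 11.9%) and 51 and 328 (7.76% and 10.5%). A rank list of 50000 gave 101 and 327 (5.90% and 6.67%). Without each library they were 52 to 218 and 286 to 1143 (2.94% to 17.7% and 4.19% to 22.45%). KO-only and WT-only regions were 13 and 54 at 25000, against 1.705% and 1.55% of all kept regions. At 100000 they were 76 and 179, against 1.38% and 1.23%. At 50 kb, 200 kb and all annotated genes they were 63 and 125, 15 and 45, and 4 and 12, against 1.42% and 1.24%. Without a WT library 45 to 96 were KO-only, against 2.01% to 3.81% of all kept regions. Without a KO library 97 to 414 were WT-only, against 1.58% to 6.59%. The width against intervals deep inside genes changed sign at 25000 (0.333 bp), at 50 kb (7.58 bp) and over the libraries left out (-1.1 to 0.9 bp), and passed at 200 kb (-13.4 bp) and with all annotated genes (-22.6 bp). The summit difference from such intervals missed the threshold at 25000 (-0.0134). Without each library the width and summit differences were -23.6 to -21.4 bp and -0.0469 to -0.0395 against intervals 10 to 100 kb from a gene, and -0.0237 to -0.0181 summits against deep ones, with the smallest p that 5 pairs allow (0.0625). The replicate block called 31 higher and 344 lower (0.905% and 10.04%, against 2.42% and 4.90% of all kept regions, limma); deviations of same-numbered libraries correlated at -0.25, 0.50 and 0.55, so the numbers were not taken as a pairing. The causes were not tested. A smallest background coverage of 5.89 to 7.98 limits which weak peaks were listed.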
